A study of Mus musculus with 23 samples.

Results

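The genes described here encode the troponin and tropomyosin isoforms that regulate contraction of the sarcomere: 10 genes, listed by name, out of the 38924 genes in the count files, and all 10 were found there. They were sorted by textbook fibre type into 4 slow members (Tnnt1, Tnni1, Tnnc1 and Tpm3), 4 fast members (Tnnt3, Tnni2, Tnnc2 and Tpm1), 1 fetal and cardiac member (Tnnt2) and Tpm2, which both fibre types use. RNA with poly(A) tails from mouse quadriceps, the large thigh muscle, was sequenced in 23 libraries that fall into 6 groups, all on the C57BL/6 background, fed chow and handled in occasional glucose and exercise tolerance tests. At 7 months, 4 wild-type mice stood beside 4 mNKO mice, in which Nampt is deficient in skeletal muscle. At 4 months, 4 wild-type mice stood beside 3 MCK-NamptOE mice, which overexpress Nampt in skeletal muscle, and at 24 months 4 wild-type mice stood beside 4 MCK-NamptOE mice. Nampt makes the precursor from which most cells rebuild NAD. The sex of the animals, the promoter behind the deletion and what MCK stands for are not given in the sources used here, and the titles give each library its own animal number. RNA was extracted with another kit at 7 months than at 4 and 24 months, so the 7-month values and the 4- and 24-month values are given side by side and were never tested against each other.

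Troponin is a complex of 3 different subunits on the thin filament. Troponin C binds calcium, troponin I holds the filament off until calcium arrives, and troponin T fastens the complex to tropomyosin, a coiled rod that lies along actin and covers or exposes the sites for myosin. Slow and fast fibres carry separate genes for each subunit, the mouse quadriceps consists largely of fast fibres, and fetal and regenerating fibres also make the cardiac troponin T gene, Tnnt2. Tpm1 and Tpm3 are named for the fast and slow alpha-tropomyosins and Tpm2 for beta-tropomyosin, but all 3 Tpm genes also make non-muscle tropomyosins from other transcripts. GENCODE M21 lists 21 transcripts for Tpm1, 16 for Tpm3 and 6 for Tpm2, and a count per gene pools them. The Tpm3 copies Tpm3-rs7 and Tpm3-rs2 held 0 counts in all libraries.

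On the GRCm38 assembly several members sit in pairs on the same strand. Tnni1 (ENSMUSG00000026418.10) spans chr1:135779434-135810989 on the plus strand, and Tnnt2 (ENSMUSG00000026414.7) follows 25.4 kb further on, at chr1:135836354-135852260. Tnni2 (ENSMUSG00000031097.8, chr7:142441808-142444410) and Tnnt3 (ENSMUSG00000061723.11, chr7:142498836-142516009) lie 54.4 kb apart on the plus strand. Tnnt1 (ENSMUSG00000064179.7, chr7:4504570-4516382) lies on the minus strand 1.9 kb from the cardiac troponin I gene Tnni3, which is not among the 10. Tnnc1 (ENSMUSG00000091898.2) lies at chr14:31208312-31211729 on the plus strand and Tnnc2 (ENSMUSG00000017300.9) at chr2:164777161-164779967 on the minus strand. The tropomyosin genes are Tpm1 (ENSMUSG00000032366.9, chr9:67022590-67049406, minus), Tpm2 (ENSMUSG00000028464.10, chr4:43514711-43523765, minus) and Tpm3 (ENSMUSG00000027940.12, chr3:90072649-90100902, plus). Tnnc2 shares 592 of its 800 exonic bases with Ube2c on the opposite strand, and since strand-specific counting is not stated, reads there cannot be told apart. Ube2c held 2415 counts over all libraries against 2468189 for Tnnc2. Whether reads in the shared bases were left out of the Tnnc2 count is not known. Tnnc2 levels per kilobase and the troponin C shares below carry that limit.

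The promoters of the members whose counts moved most are shown because these genes rose together at 7 months. RefSeq's table for GRCm38.p6 had promoter entries for 8 of the 10 members, in 11 windows of 250 bases before an annotated start. Each line gives the stretch of that window outside any annotated exon, 5′ to 3′ on the gene's own strand. Capitals mark matches, on either strand, to the E-box (CANNTG), the MCAT element (CATTCC) or a GATA motif (AGATAA).
Tnni1, chr1:135799171-135799401, plus strand: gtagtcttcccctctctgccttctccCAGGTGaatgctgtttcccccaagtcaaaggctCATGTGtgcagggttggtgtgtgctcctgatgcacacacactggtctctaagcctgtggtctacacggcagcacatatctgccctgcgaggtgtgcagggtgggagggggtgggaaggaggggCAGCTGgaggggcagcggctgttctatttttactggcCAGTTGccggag
Tnnt1, chr7:4516005-4516225, minus strand: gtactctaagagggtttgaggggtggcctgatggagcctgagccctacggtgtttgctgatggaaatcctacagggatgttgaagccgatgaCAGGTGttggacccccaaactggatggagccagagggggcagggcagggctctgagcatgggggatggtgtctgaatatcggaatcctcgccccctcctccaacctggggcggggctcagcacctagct
Tnnc1, chr14:31208062-31208311, plus strand: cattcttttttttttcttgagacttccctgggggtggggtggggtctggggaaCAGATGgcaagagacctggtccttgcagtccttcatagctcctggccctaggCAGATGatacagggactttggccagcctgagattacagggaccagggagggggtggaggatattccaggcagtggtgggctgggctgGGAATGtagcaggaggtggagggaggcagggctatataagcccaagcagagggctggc
Tnnt2, chr1:135836084-135836333, plus strand: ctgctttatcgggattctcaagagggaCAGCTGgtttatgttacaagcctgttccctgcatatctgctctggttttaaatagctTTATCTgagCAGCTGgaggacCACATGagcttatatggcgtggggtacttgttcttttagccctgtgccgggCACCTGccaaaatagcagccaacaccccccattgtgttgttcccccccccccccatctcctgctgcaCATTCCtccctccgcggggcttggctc
Tnnc2, chr2:164779742-164779867, minus strand: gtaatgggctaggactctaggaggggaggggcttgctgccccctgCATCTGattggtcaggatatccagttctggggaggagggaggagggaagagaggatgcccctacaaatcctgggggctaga

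The Tnni1, Tnnt1 and Tnnc2 stretches lie within the GENCODE span of their gene, intronic to transcripts that start further upstream, and those of Tnnc1 and Tnnt2 lie before it. These stretches held 4 E-boxes in Tnni1, 1 in Tnnt1, 2 in Tnnc1, 4 in Tnnt2 and 1 in the fast gene Tnnc2, shown for contrast. An MCAT element lay 58 bases before the Tnnc1 start and 27 before the Tnnt2 start, and a GATA motif 166 bases before the Tnnt2 start. Of 32851 promoter windows of the same length, 66.2% held an E-box, 12.6% an MCAT element and 9.99% the GATA motif. The MEF2 site (2.92% of windows) and the CArG box (1.47%), searched by their usual consensus, matched in none of the 11 windows. No matches overlapped each other in the stretches shown, and a match describes the letters only.

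Library depth ranged from 14900674 to 22755930 counts in genes at 7 months and from 2032544 to 3443762 at 4 and 24 months. Levels are given as CPM, read counts scaled to the size of the library and then by trimmed mean of M-values (TMM), a correction for library composition whose factors ran from 0.752 to 0.913 in wild-type and from 1.109 to 1.286 in mNKO libraries at 7 months. The upper limit a count of 0 allows was set at 3 counts. Scaled by library size alone, without TMM, 3 counts were up to 0.201 CPM at 7 months. In the shallower libraries they were up to 1.48 CPM on that scale. With TMM these floors shift, and 3 counts of Tnni1 in MCK-NamptOE replicate 3 at 4 months read 1.51 CPM. Intervals and floors of this kind cover counting error only. The defining genes of skeletal muscle were present in every library, with a summed level of 6 such genes (Acta1, Ckm, Myh4, Mb, Ttn and Des) between 52091.3 and 132205.5 CPM. Of 8 heart markers, Nppa, Nkx2-5 and Gata4 had no counts in any library, and Nppb and Myl7 had counts in mNKO libraries alone. The 8 summed to at most 3.95 CPM, a value reached in MCK-NamptOE at 24 months. Nampt itself followed the labels, at 119.4 ± 11.8 CPM (SD, n = 4) in 7-month wild type and 18.6 ± 4.5 (n = 4) in mNKO. It reached 5055.4 ± 628.4 CPM (n = 3) against 218.3 ± 23.1 (n = 4) at 4 months and 6172.7 ± 2324.2 (n = 4) against 204.2 ± 12.1 (n = 4) at 24 months in MCK-NamptOE and wild type, with no overlap of libraries in any of these 3 comparisons.

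In mNKO muscle at 7 months, 9 of the 10 genes differed from wild type by edgeR's quasi-likelihood test (Benjamini-Hochberg adjusted p below 0.05, over 13140 genes). All 4 slow members and Tnnt2 rose, between 4.23-fold and 106.0-fold, and all 4 fast members fell to between 0.479 and 0.536 of the wild-type level, while Tpm2 did not pass the test. Calls were common in this comparison: 53.1% of all tested genes passed, 28.6% higher and 24.5% lower, so the count of 9 is read against that share. The median log2 fold change was 4.84 over the slow members and -0.97 over the fast members, beside 0.014 over all genes. For the same 9 members the TMM-scaled CPM of mNKO and wild-type libraries did not overlap. This was so for 50.1% of all genes (27.0% higher in mNKO and 23.1% lower). In whole muscle, fewer cells of a type and less RNA per cell cannot be told apart, here and in every comparison that follows.

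Among the slow members, Tnni1, the slow inhibitory subunit, changed most. Tnni1 stood at 0.857, 0.818, 0.396 and 1.86 CPM in the 4 wild-type libraries and at 116.4, 102.5, 82.7 and 114.8 CPM in the 4 mNKO libraries. Every mNKO library lay far above every wild-type library. The log2 fold change of Tnni1 was 6.73 (SE 0.34, adjusted p 1.31e-06), which placed it at the 99.92 percentile of all tested genes. Tnnt1, the slow tropomyosin-binding subunit, read 2.8, 1.93, 1.47 and 1.92 CPM in wild type and 52.4, 37.6, 50.0 and 66.1 CPM in mNKO, again without overlap (log2 fold change 4.66, SE 0.23, adjusted p 8.75e-07). Tnnc1, the calcium-binding subunit that slow muscle shares with the heart, read 1.09, 1.11, 0.396 and 1.02 CPM in wild type. Its mNKO libraries read 27.1, 30.2, 27.6 and 33.2 CPM, all above the highest wild-type library (log2 fold change 5.02, SE 0.24, adjusted p 8.75e-07). Tpm3, the slow alpha-tropomyosin gene, started from a higher base of 33.6, 36.3, 29.3 and 36.7 CPM and rose to 132.8, 157.5, 118.8 and 165.9 CPM. Its log2 fold change of 2.08 (SE 0.14, adjusted p 3.66e-06) was the smallest among the members that rose, and the libraries did not overlap.

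**Figure D1:**
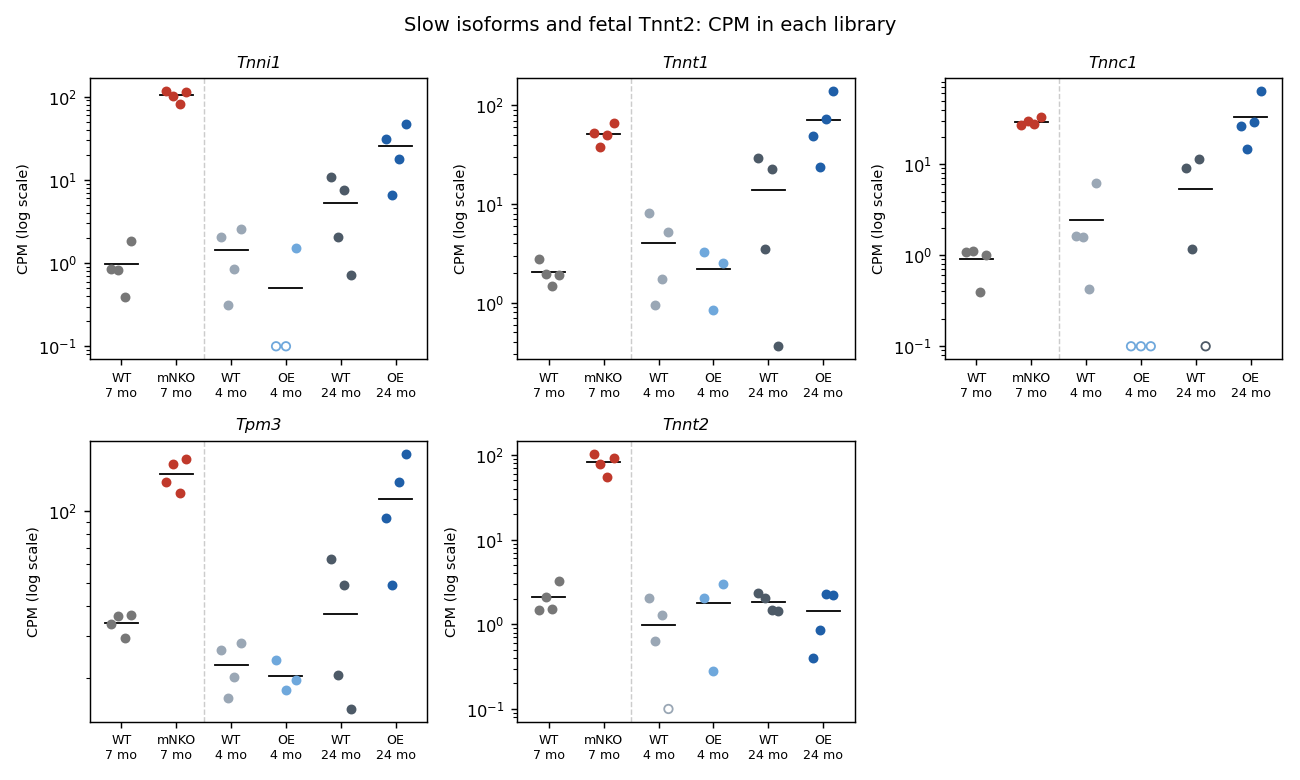
Normalised level in CPM (log axis) of Tnnt1, Tnni1, Tnnc1, Tpm3 and Tnnt2 in each library, with 1 point per library, a bar at each group mean, open circles for libraries with 0 counts and a dashed line between the 7-month libraries and the others. The 4 mNKO libraries sit above all 4 wild-type libraries of the same age in every panel, and Tnnt2 lies above 50 CPM in mNKO and at or under 3.24 CPM in the libraries of the other 5 groups.

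Tnnt2, the cardiac troponin T that fetal skeletal muscle also makes, read 1.49, 2.1, 1.53 and 3.24 CPM in wild type and 103.0, 78.8, 55.0 and 91.3 CPM in mNKO. No wild-type library came near the lowest mNKO library, and the log2 fold change was 5.30 (SE 0.29, adjusted p 1.68e-06). At 4 and 24 months Tnnt2 held only 0 to 7 counts per library, 0 to 3.01 CPM, in both genotypes, too few to pass the filter on low counts, so it was not tested there. Tnni3, the cardiac troponin I gene next to Tnnt1, rose by 2.42 on the log2 scale (SE 0.49, adjusted p 0.00162) but from a total of 11 counts in wild type to 75 in mNKO, a mean of 0.883 CPM against 0.159 CPM. The rise of Tnnt2 thus stood on 55.0 CPM or more in each mNKO library, and that of Tnni3 on less than 1 CPM on average.

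The fast members fell by similar factors. Tnnt3, the fast troponin T, read 33883.8, 46285.6, 43978.6 and 41203.2 CPM in wild type and 17075.0, 25129.2, 16254.2 and 20668.4 CPM in mNKO (log2 fold change -1.06, SE 0.19, adjusted p 0.00086). Tnni2, the fast troponin I, read 10883.7, 16006.6, 14468.5 and 15089.9 CPM against 6194.3, 8559.3, 5538.2 and 7343.2 CPM (log2 fold change -1.03, SE 0.19, adjusted p 0.001). For both genes the highest mNKO library was replicate 2 and still lay below the lowest wild-type library. Tpm1, the fast alpha-tropomyosin gene, read 26140.5, 29322.7, 37191.3 and 29382.5 CPM against 15568.8, 19893.6, 11657.0 and 18021.1 CPM (log2 fold change -0.90, SE 0.20, adjusted p 0.0031). Tnnc2, the fast calcium-binding subunit, read 14592.1, 24182.2, 19904.7 and 20332.1 CPM against 8902.2, 13122.8, 7496.7 and 12800.2 CPM (log2 fold change -0.90, SE 0.23, adjusted p 0.00642). The Tnnc2 groups came closest to each other, with 13122.8 CPM in the highest mNKO library and 14592.1 CPM in the lowest wild-type library.

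Tpm2, the beta-tropomyosin gene, did not pass the test. Its levels of 9909.3, 15057.9, 7905.1 and 9953.1 CPM in wild type overlapped those of 8773.5, 9606.7, 8496.9 and 10020.1 CPM in mNKO (log2 fold change -0.21, SE 0.20, adjusted p 0.397). Tpm4, a mainly non-muscle tropomyosin gene outside the 10, rose from 32.1 ± 4.46 to 78.5 ± 5.3 CPM (SD, n = 4 each; log2 fold change 1.29, SE 0.12, adjusted p 1.98e-05).

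Scaling bears on the fast members. With total counts in place of the composition correction, the median log2 fold change of all genes moved from 0.014 to 0.538, the calls split into 6779 higher and 927 lower genes instead of 3759 and 3215, and Tnnc2 was no longer called (log2 fold change -0.38, adjusted p 0.0865), which left 8 members. The other 3 fast members stayed called and lower, and Tpm2 turned from -0.21 to 0.32, which is still under that all-gene median. As counts over library totals, the groups also overlapped for Tnnc2 and, narrowly, for Tpm1. Tnnc2 held 257060 of 16782065 counts in mNKO replicate 4 and 255389 of 19503337 in wild-type replicate 1. Tpm1 held 328819 of 14900674 counts in mNKO replicate 2 and 501878 of 22755930 in wild-type replicate 2.

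**Figure D2:**
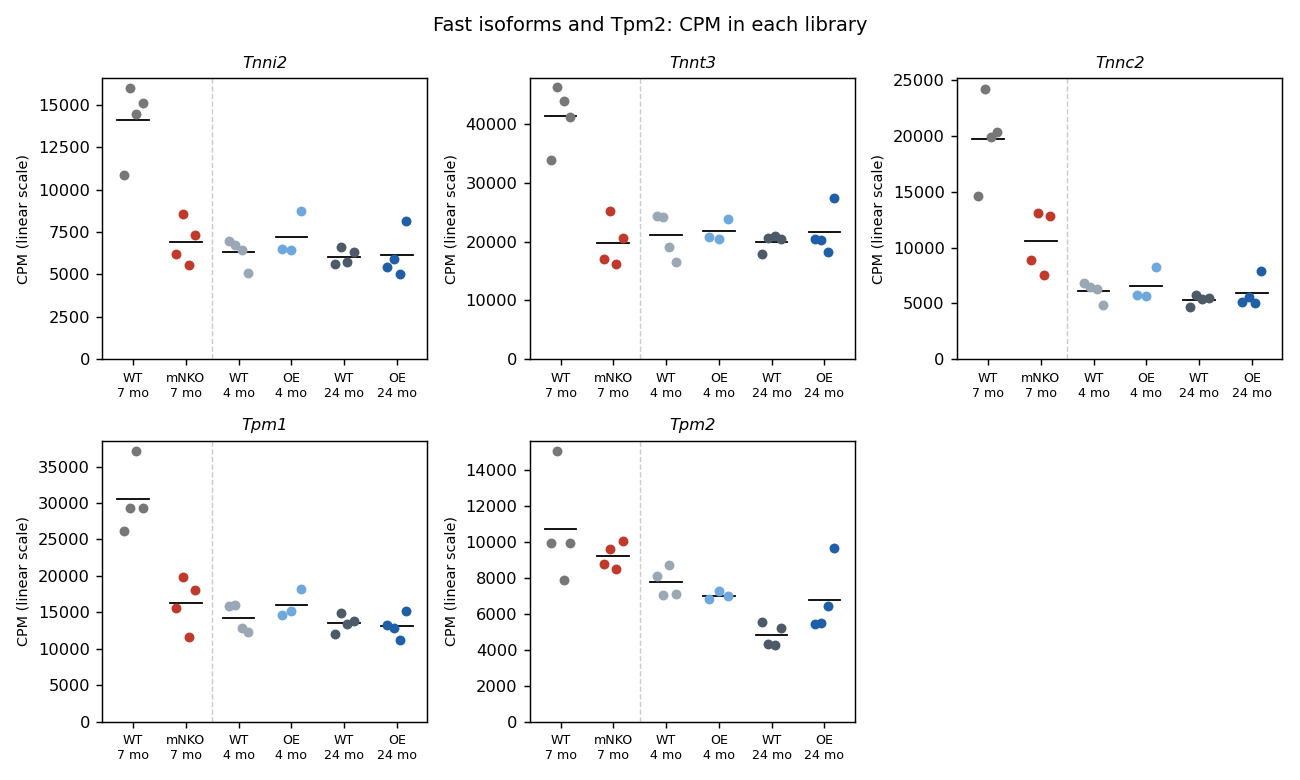
Normalised level in CPM (linear axis from 0) of Tnnt3, Tnni2, Tnnc2, Tpm1 and Tpm2 in each library, with 1 point per library, a bar at each group mean and a dashed line between the 7-month libraries and the others. The mNKO libraries lie below the 7-month wild-type libraries for all but Tpm2, and in the comparisons at 4 and 24 months the groups overlap except for Tpm2 in wild type with age.

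Even in mNKO the fast genes outweighed the slow ones. On a scale of CPM per kilobase of exon, which allows levels of different genes to be compared, Tnnc2 stood at 13225.6 ± 3514.6 and Tnnt3 at 12496.3 ± 2557.0 (SD, n = 4) in mNKO, and these neighbours did not differ beyond their spread. Tnni2 followed at 4615.1, Tpm2 at 3171.0 and Tpm1 at 2511.2 CPM per kilobase. Then came Tnni1 at 28.9 ± 4.32, Tnnc1 at 28.3 ± 2.69, Tpm3 at 23.6 ± 3.58 and Tnnt1 at 23.4 ± 5.29, a group of 4 slow genes whose ranges overlapped. Tnnt2 came last at 10.6 ± 2.65 CPM per kilobase, with every mNKO library below the lowest Tnnt1 library. With the length of each gene's longest transcript in place of the exon union, the slow order became Tpm3 at 60.6, Tnnt1 at 48.7, Tnni1 at 48.3 and Tnnc1 at 40.9 CPM per kilobase, with Tnnt2 still last at 24.6. On that length Tnnt3 at 18333.4 came before Tnnc2 at 15115.0, and Tpm1 at 5635.0 before Tpm2 at 4241.1 CPM per kilobase. The libraries of both pairs overlapped. In 7-month wild type, by exon union, the slow genes were spread more widely on this scale: Tpm3 at 5.58, Tnnt1 at 0.921, Tnnc1 at 0.867, Tnni1 at 0.273 and Tnnt2 at 0.269 CPM per kilobase.

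As a share of its subunit per length, slow troponin I (Tnni1 over Tnni1 plus Tnni2) made up 0.00292% in 7-month wild type and 0.633% ± 0.115 (SD, n = 4, range 0.495% to 0.775%) in mNKO. Troponin T shares were taken over Tnnt1, Tnnt2 and Tnnt3, and troponin C shares over Tnnc1 and Tnnc2. Slow troponin C rose from 0.00366% to 0.223% ± 0.0459. Slow troponin T rose from 0.00367% to 0.194% ± 0.0579, and fetal troponin T from 0.00103% to 0.0864% ± 0.0267. The shares depend on the length by which counts are divided. As shares of plain counts, the mNKO means were 1.51% for slow troponin I (1.18% to 1.84%), 0.289% for slow troponin C, 0.269% for slow troponin T and 0.421% for fetal troponin T (0.312% to 0.598%), so that fetal troponin T stood above slow troponin T on that scale. Per length of exon union, Tpm3 made up 0.0671% of tropomyosin in wild type and 0.414% ± 0.0157 in mNKO. Tpm2 made up 43.6% ± 8.78 in wild type and 56.0% ± 4.17 in mNKO, with Tpm1 nearly all of the rest. As shares of plain counts, Tpm2 made up 17.5% to 33.9% in wild type and 32.4% to 41.9% in mNKO. Tpm1 then made up 66.0% to 82.4% and 57.5% to 67.1%, so Tpm2 was the larger part in mNKO by exon-union length only. These shares were not tested and describe the same counts as the tests above.

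The subunits did not rise in one proportion. Tnni1 per unit of Tnnt1 averaged 0.301 in wild type (range 0.165 to 0.593) and 1.27 ± 0.305 in mNKO (range 1.01 to 1.67), so the inhibitory subunit gained most. Among the fast genes the proportions stayed close: Tnni2 per unit of Tnnt3 was 0.36 ± 0.0209 in wild type and 0.37 ± 0.012 in mNKO, and Tnnc2 per unit of Tnnt3 was 0.939 and 1.05.

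The other genes of the contractile machinery, from lists chosen by function, were counted in mNKO muscle beside the 28.6% of all genes that were higher and the 24.5% that were lower. Of 15 other slow-fibre genes, 11 rose, 0 fell and 4 did not pass the test (median log2 fold change 2.43). Atp2a2, the slow calcium pump, went from 27.8 to 103.7 CPM (log2 fold change 1.90, SE 0.12), Casq2, a calcium store protein of slow and heart muscle, from 10.1 to 119.3 CPM, Myl6b from 6.38 to 20.7 CPM and Actn2, an anchor of the thin filament, from 183.2 to 735.3 CPM. The slow myosin heavy chain Myh7 rose too (log2 fold change 4.87, SE 0.91, adjusted p 0.00159) but only from 0.143 ± 0.211 to 4.36 ± 3.65 CPM (SD, n = 4 each). Its partner light chain Myl2 did not pass (log2 fold change 2.43, SE 1.41, adjusted p 0.19; 1.37 and 7.38 CPM).

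Of 7 tested developmental sarcomere genes, 6 rose and 0 fell (median 2.54). The embryonic myosin heavy chain Myh3 went from 2.15 ± 2.91 to 137.7 ± 23.3 CPM, the perinatal myosin heavy chain Myh8 from 2.51 to 251.9 CPM, the embryonic light chain Myl4 from 4.05 to 224.3 CPM and cardiac actin, Actc1, from 264.7 to 1270.6 CPM (SD, n = 4 each). Tnnt2 therefore rose beside these genes, all 4 of which passed the test with adjusted p at most 0.000759. Of 15 fast-fibre genes, 9 fell and 1 rose (median -0.97). With total counts, 8 of them were lower and 3 higher (median -0.45), beside 927 lower and 6779 higher of all genes. Actn3, the fast alpha-actinin, fell by 1.62 on the log2 scale, Ampd1, a muscle purine enzyme, by 1.82 and Mybpc2, the fast myosin-binding protein C, by 1.32. The 1 gene that rose with the composition correction was Myh1, the fast 2X myosin heavy chain. It stood at 671.5 ± 211.8 CPM in wild type and 2791.8 ± 869.7 CPM in mNKO, a log2 fold change of 2.06 (SE 0.28, adjusted p 0.000168).

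Of 17 tested thin-filament genes, the scaffold on which troponin and tropomyosin sit, 4 rose and 8 fell, where the share that rose is under that of all genes. Xirp2 fell by 1.25 and Tmod4, which caps the filament's pointed end, by 0.95 on the log2 scale, while Xirp1 rose by 1.35 and Fhl1 by 2.36. Of 24 fibre-type and myogenic regulators, 4 rose and 11 fell. Both balances depended on scaling. With total counts, 8 thin-filament genes were higher and 5 lower, and 7 regulators were higher and 6 lower. Of all genes, 6779 were then higher and 927 lower. Myog, a factor of muscle differentiation, went from 5.34 to 55.0 CPM (log2 fold change 3.37), whereas Eya1 and Tbx15, factors linked to the fast programme, fell by 1.36 and 1.08.

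Markers of other cells moved beside the members at 7 months. Of 9 markers of myogenic progenitors and regenerating fibres, 6 rose and 0 fell, led by the fusion factor Tmem8c (0.372 to 44.7 CPM), the fetal acetylcholine receptor subunit Chrng (0.252 to 18.3 CPM), Vim and Ncam1. All 8 fibroblast markers rose, with Lum, Col3a1, Col1a2 and Thy1 of lowest p, and all 8 macrophage markers, with Cd14, Itgam, Emr1 and Csf1r of lowest p. Their summed levels did not overlap: 853.7 to 1126.7 CPM in wild type against 3197.0 to 5266.4 CPM in mNKO for fibroblasts, and 67.2 to 274.2 against 981.7 to 1977.3 CPM for macrophages. The summed myogenic list overlapped, at 3944.2 to 5783.8 against 4525.6 to 7175.8 CPM. The 6 defining skeletal muscle genes summed to 113889.6 to 132205.5 CPM in wild type and 52091.3 to 78362.4 CPM in mNKO, with 4 lower (Myh4, Ckm, Ttn and Acta1) and 0 higher. Smooth muscle markers summed to 938.8 to 1161.8 and 759.3 to 958.1 CPM (of 7 tested, Acta2 higher, Synpo2 and Myh11 lower), 1 of 8 endothelial markers (Esam) rose, and heart markers summed to at most 2.91 CPM (1 of 2 tested higher, Tnni3). With total counts, 2 smooth muscle markers were higher and 0 lower, and 2 endothelial markers were higher and 0 lower. Of the defining genes, 1 was then higher and 3 lower. Mitochondrial transcripts took 13.85% to 19.65% of counts in wild type and 7.74% to 13.64% in mNKO. The part of these shifts in the members' changes was not tested.

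**Figure D3:**
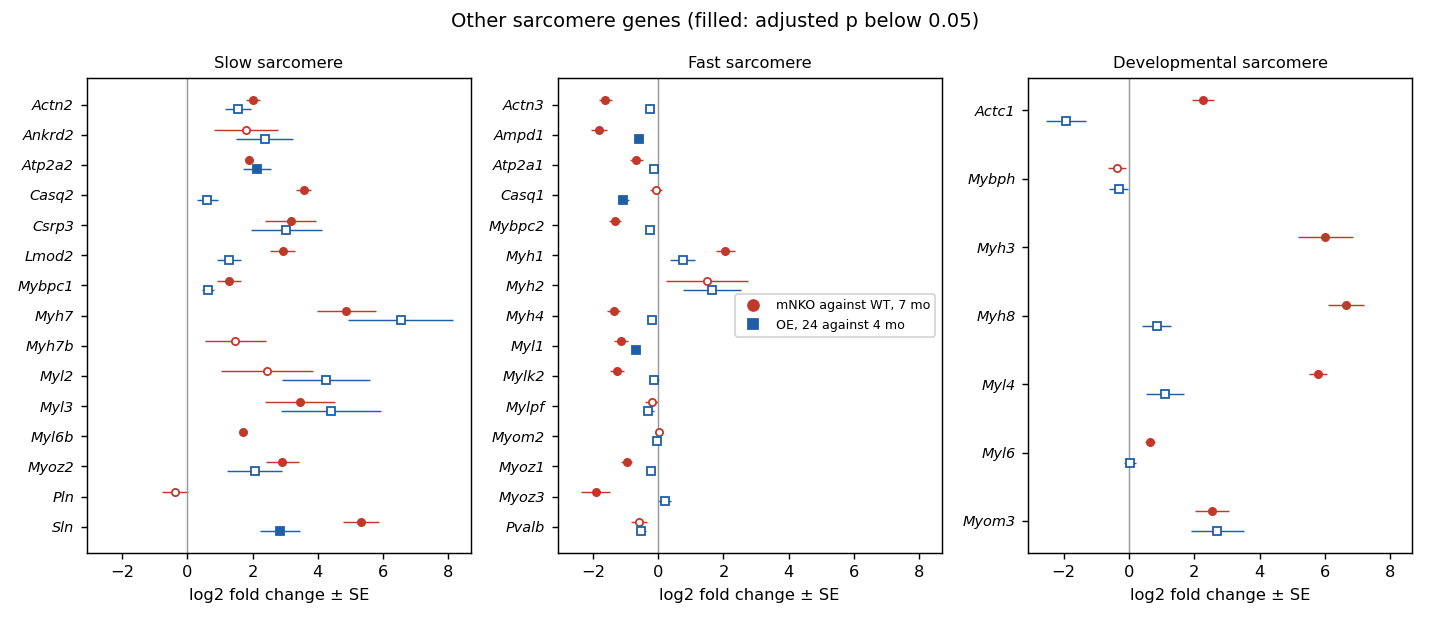
Log2 fold change with its standard error for each tested gene of the slow, fast and developmental sarcomere lists, in mNKO against wild type at 7 months and in MCK-NamptOE at 24 against 4 months, with filled points for adjusted p below 0.05. In mNKO 11 of 15 slow, 6 of 7 developmental and 1 of 15 fast genes rose and 9 fast genes fell, and in MCK-NamptOE with age 2 of 12 slow genes rose and 3 of 15 fast genes fell.

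At 4 and 24 months the tests ran over 9144 genes, and 9 of the 10 members could be tested. The 4 comparisons share libraries with each other, so their values stand side by side and are not independent. In MCK-NamptOE muscle, the 4 slow members read higher at 24 than at 4 months in every library, yet none passed edgeR's test after adjustment. For those 4 members the ages did not overlap, as was so for 10.3% of all genes (5.11% higher at 24 months and 5.18% lower). The calls over all genes were few, 0.733% (0.317% higher and 0.416% lower). Unadjusted p was under 0.05 for the same 4 members and for 1010 of the 9144 genes, and the median log2 fold change was 5.50 over the slow members (4.95 with Tnnc1 at its lower bound) and -0.19 over the fast members, beside 0.016 over all genes.

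Tnni1 read 0, 0 and 1.51 CPM at 4 months, 3 counts in all, and 30.9, 6.5, 17.7 and 47.4 CPM at 24 months. The lowest aged library was thus well above the highest young one, and the ratio of summed counts per library total was 66.0 with a counting interval of 22.3 to 322 (95%, exact). The fitted log2 fold change was 5.91 (SE 1.22, adjusted p 0.0549). Tnnt1 read 3.27, 0.841 and 2.51 CPM at 4 months and 49.3, 23.9, 72.2 and 139.0 CPM at 24 months (log2 fold change 5.10, SE 1.17, adjusted p 0.0866). Tnnc1 had 0 counts in all 3 libraries at 4 months and read 26.1, 14.7, 28.9 and 63.6 CPM at 24 months, at least 28.0-fold higher when the young level is set to 3 counts per library, which is 1.19 CPM on average (adjusted p 0.0765). Tpm3 went from 23.7, 17.7 and 19.6 CPM to 93.8, 49.0, 132.3 and 174.1 CPM, 5.55-fold (log2 fold change 2.47, SE 0.54, adjusted p 0.0669). In all 4 genes replicate 2 was the lowest of the aged libraries and replicate 4 the highest.

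Whether these 4 genes count as changed depended on the test. DESeq2 called all 4 (adjusted p 9.41e-05 to 0.00151), edgeR without robust estimation called all 4 (0.00516 to 0.00642), limma-voom called 3 and left out Tnnt1 (adjusted p 0.111), and a fit of all 23 libraries together called all 4 (0.0138 to 0.0234). Scaling by total counts called Tnni1 alone (adjusted p 0.0482). Of all genes, DESeq2 called 1.19%, edgeR without robust estimation 0.984%, limma-voom 0.853%, the fit of 23 libraries 0.602% and total counts 0.744%. Leaving out 1 library at a time called between 0 and 2 members, and the 2 came from leaving out replicate 2 of the aged MCK-NamptOE mice. Over all genes, leaving out 1 MCK-NamptOE library called 0.118% to 0.954%, the highest share again without aged replicate 2. In the authors' deposited table for this comparison all 4 were higher at an adjusted p below 0.05, with log2 fold changes of 3.99 for Tnnt1, 4.38 for Tnni1, 3.82 for Tnnc1 and 2.33 for Tpm3.

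The fast members hardly moved with age in MCK-NamptOE muscle. Log2 fold changes ran from -0.28 for Tpm1 to -0.01, with adjusted p from 0.454 to 0.99. Tnnt3 read 20786.1, 20523.0 and 23883.2 CPM at 4 months and 20469.8, 20269.2, 18173.3 and 27369.1 CPM at 24 months, and these ranges overlapped. Aged replicate 4, the highest for the slow members, was also the highest for all 4 fast members and for Tpm2. It had the most Nampt as well, with 9495.9 CPM against 5711.8, 4088.4 and 5394.7 CPM in aged replicates 1, 2 and 3, and replicate 2 had the least. How far the Nampt level bears on the slow members was not tested.

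**Figure D4:**
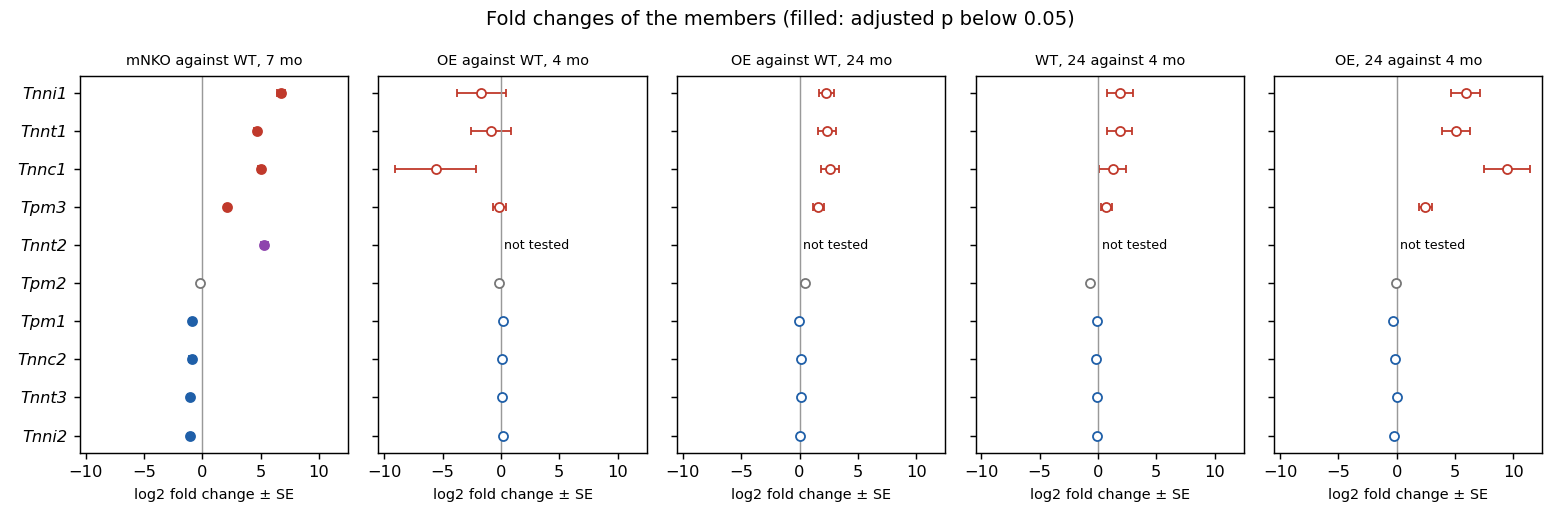
Log2 fold change with its standard error for the 10 genes in 5 comparisons, with filled points for adjusted p below 0.05 and Tnnt2 given as not tested at 4 and 24 months. Filled points occur in mNKO against wild type alone, where slow members and Tnnt2 lie above 0 and fast members below, and the slow members of MCK-NamptOE at 24 against 4 months lie between 2.47 and 9.46, the last for Tnnc1, which is fitted against libraries with 0 counts.

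At 24 months, MCK-NamptOE and wild-type muscle differed in no member by edgeR's test (0 of 9, and 0 by DESeq2), with unadjusted p under 0.05 for 5 members and for 671 of 9144 genes. Over all genes 0.0109% were called, which is 1 gene, Nampt. The authors' deposited table for this comparison also has no member at an adjusted p below 0.05, with Tpm3 nearest (log2 fold change 1.5, adjusted p 0.0644). Tnnt1 read 29.3, 3.51, 22.7 and 0.361 CPM in aged wild type and 49.3, 23.9, 72.2 and 139.0 CPM in aged MCK-NamptOE, and the groups overlapped (log2 fold change 2.37, SE 0.76, adjusted p 0.599). Tnni1 read 10.7, 2.05, 7.47 and 0.721 CPM in aged wild type, overlapping the 6.5 to 47.4 CPM of MCK-NamptOE (log2 fold change 2.31, SE 0.67, adjusted p 0.585). Tpm3 read 63.3, 20.5, 49.0 and 14.8 CPM in aged wild type and overlapped too (log2 fold change 1.61, SE 0.45, adjusted p 0.543). Tnnc1 alone did not overlap, with 9.1, 1.17, 11.4 and 0 CPM in wild type below 14.7 CPM in the lowest MCK-NamptOE library (log2 fold change 2.61, SE 0.77, adjusted p 0.593); 4.71% of all genes showed no overlap here (2.41% higher and 2.31% lower).

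Aged wild-type muscle was itself uneven. Replicates 1 and 3 were the highest of the 4 for all slow members and replicate 4 the lowest, with Tnnt1 at 29.3 and 22.7 CPM against 0.361 CPM, which is 1 count. Tnnc1 had no count in replicate 4. For 3 fast members the same libraries, replicates 1 and 3, were the lowest. Tnni2 read 5591.7, 6599.5, 5698.6 and 6293.1 CPM in replicates 1 to 4, Tnnc2 4645.1, 5750.4, 5395.1 and 5439.3 CPM, and Tpm1 12017.3, 14845.5, 13419.4 and 13769.8 CPM. Tnnt3 read 17956.9, 20611.7, 20932.2 and 20445.0 CPM, lowest in replicate 1 and highest in replicate 3.

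With age in wild type, from 4 to 24 months, edgeR called none of 9 members and 0.153% of all genes (0.0656% higher and 0.0875% lower). Unadjusted p was under 0.05 for 1 member, Tpm2, and for 781 of 9144 genes. Tpm2 read 8117.2, 7059.1, 8698.2 and 7116.4 CPM at 4 months and 5534.8, 4310.2, 4284.7 and 5225.8 CPM at 24 months. The ages did not overlap, as was so for 5.4% of all genes (2.59% higher and 2.81% lower), and the log2 fold change was -0.68 (SE 0.16, adjusted p 0.0833). DESeq2 called it (adjusted p 0.0183), and the authors' deposited table gives a log2 fold change of -0.56 with an adjusted p of 0.0438. In MCK-NamptOE muscle Tpm2 read 6808.2, 7247.8 and 6966.2 CPM at 4 months and 5424.9, 5463.6, 6417.5 and 9656.4 CPM at 24 months, where the spread among aged libraries covered the young ones (log2 fold change -0.06, adjusted p 0.954).

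The slow members in wild type read 1.91 (Tnni1), 1.84 (Tnnt1), 1.24 (Tnnc1) and 0.71 (Tpm3) higher on the log2 scale at 24 months, with adjusted p from 0.714 to 0.872 and overlapping ages. At 4 months the wild-type libraries read 8.15, 0.949, 1.72 and 5.17 CPM for Tnnt1 and 26.1, 16.4, 20.2 and 27.9 CPM for Tpm3. The fast members differed by -0.20 to -0.06 (adjusted p 0.821 to 0.967). The test of whether age acted differently in MCK-NamptOE and wild type, an interaction term, called 0 of 9 members and 0% of genes by edgeR and no member by DESeq2. Unadjusted p was under 0.05 for 3 members, Tnnc1, Tpm3 and Tpm2, and for 498 of 9144 genes. The difference in age change was 8.22 (SE 3.17) for Tnnc1, 4.00 (SE 2.16) for Tnni1, 3.26 (SE 1.85) for Tnnt1, 1.76 (SE 0.73) for Tpm3 and 0.62 (SE 0.23) for Tpm2 on the log2 scale, with adjusted p from 0.823 to 0.878. That of Tnnc1 is fitted against MCK-NamptOE libraries with 0 counts at 4 months, so its size is not well set. A larger age change of the slow members in MCK-NamptOE than in wild type was therefore not shown by these libraries.

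At 4 months, MCK-NamptOE and wild-type muscle differed in none of 9 members by edgeR or DESeq2 after adjustment, and again Nampt alone was called, 0.0109% of all genes. Tnnc1 had 22 counts over 4 wild-type libraries (1.63, 1.58, 0.43 and 6.2 CPM) and 0 over 3 MCK-NamptOE libraries. It was the 1 member whose libraries did not overlap, as was so for 5.27% of all genes (2.71% higher and 2.56% lower), and its adjusted p was among the 0.959 to 0.99 of the slow members. By edgeR's test no member had an unadjusted p under 0.05, against 441 of 9144 genes, whereas the unadjusted p of Tnnc1 was 0.00282 by DESeq2 and 0.0464 by edgeR without robust estimation. Without the filter on low counts Tnnc1 was called (adjusted p 0.000237). The fast members differed by 0.05 to 0.20 and Tpm2 by -0.15 on the log2 scale.

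**Figure D5:**
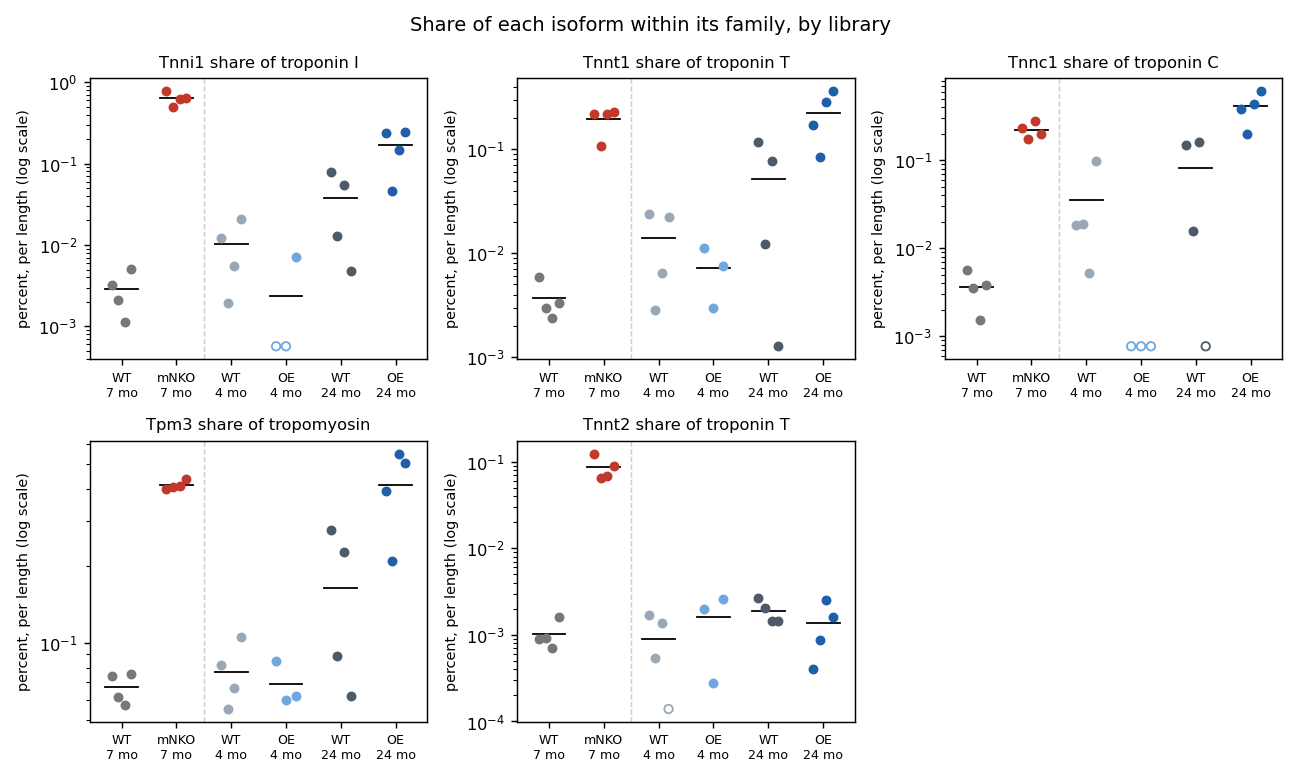
Share in percent, per length and on a log axis, of each slow or fetal gene within its own subunit in each library, with bars at group means and open points, set at the bottom of the panel, for shares of 0. The mean shares of slow troponin I, T and C are highest in mNKO and in MCK-NamptOE at 24 months, and the fetal troponin T share is 0.064% to 0.123% in mNKO and averages at most 0.00191% in the other groups.

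Per length, the slow shares stood in another order in the 2 settings in which they were high. The 2 are set side by side without a test. These settings differ in extraction kit, depth and age as well as genotype, and these cannot be told apart here. In wild type alone, Tnnc2 per unit of Tnnt3 was 0.939 at 7 months, 0.577 at 4 months and 0.525 at 24 months. Slow troponin C shares, which are taken over Tnnc2, carry that difference. Aged MCK-NamptOE muscle had a slow share of 0.167% ± 0.0917 for troponin I, 0.226% ± 0.123 for troponin T and 0.411% ± 0.169 for troponin C (SD, n = 4). In mNKO troponin I led with 0.633%, ahead of troponin C with 0.223% and troponin T with 0.194%. As shares of plain counts, aged MCK-NamptOE libraries ran from 0.11% to 0.577% for troponin I and from 0.118% to 0.505% for troponin T. Troponin C ran from 0.263% to 0.796%. Troponin I and T are therefore not set apart on that scale. Per unit of Tnnt1, aged MCK-NamptOE muscle held 0.227 ± 0.107 of Tnni1 and 0.00649 of Tnnt2, and mNKO muscle 1.27 ± 0.305 and 0.465 ± 0.135. Tnnc1 per unit of Tnnt1 was 1.06 ± 0.199 and 1.25 ± 0.3. The Tpm3 share of tropomyosin was 0.413% ± 0.152 in aged MCK-NamptOE and 0.414% ± 0.0157 in mNKO, and 0.164% in aged wild type (range 0.062% to 0.276%).

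Per kilobase of exon, the 5 genes Tnnt3, Tnnc2, Tnni2, Tpm1 and Tpm2 led in every group at 4 and 24 months too, with Tnnt3 first at 12625.7 to 13727.6 and Tpm1 and Tpm2 not separated by exon-union length. Among the low genes of aged MCK-NamptOE muscle, Tnnt1 at 32.2 ± 22.4, Tnnc1 at 32.0 ± 20.2, Tpm3 at 18.5 ± 8.78 and Tnni1 at 7.11 ± 4.89 CPM per kilobase overlapped as neighbours (SD, n = 4), and Tnnt2 at 0.184 ± 0.121 lay below them all. In aged wild type the order by exon union was Tnnt1 at 6.34, Tpm3 at 6.06, Tnnc1 at 5.2, Tnni1 at 1.45 and Tnnt2 at 0.237, with no neighbours separated. At 4 months Tpm3 led the low genes in both genotypes, at 3.72 ± 0.868 in wild type and 3.34 ± 0.505 in MCK-NamptOE, and only in MCK-NamptOE were all its libraries above the next gene, Tnnt1, at 1.0 ± 0.563 CPM per kilobase. By longest transcript, Tpm3 at 15.5 came before Tnnt1 at 13.2 CPM per kilobase in aged wild type, and Tnni1 was the lowest of the 4 slow members in both aged groups on either length.

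Over all genes, 0.317% were called higher and 0.416% lower with age in MCK-NamptOE, and 1010 of 9144 had an unadjusted p under 0.05. With age in wild type the called shares were 0.0656% higher and 0.0875% lower. Other slow-fibre genes in MCK-NamptOE muscle with age included 2 that rose among 12 tested, Sln, a small inhibitor of the calcium pump (1.02 to 7.39 CPM, log2 fold change 2.84, adjusted p 0.0236), and Atp2a2 (23.3 to 100.3 CPM, 2.12, adjusted p 0.0435). The list's median was 2.25, with an unadjusted p under 0.05 for 11 of the 12. Myh7 read 1.31 ± 0.909 CPM (SD, n = 3) at 4 months and 109.8 ± 48.3 CPM (n = 4) at 24 months (log2 fold change 6.54, SE 1.61, adjusted p 0.106). Of 15 fast-fibre genes 3 fell: Casq1 by 1.07, Myl1 by 0.68 and Ampd1 by 0.60 on the log2 scale. None of 6 developmental genes and none of 16 thin-filament genes passed, and Vgll2 was the 1 regulator of 22 that did (log2 fold change 1.0, adjusted p 0.0184). Beside these, 2 of 6 fibroblast markers fell (Col1a2 by 2.37 and Col1a1 by 1.85), which also fell with age in wild type (by 1.45 and 1.77), and the summed fibroblast list went from 453.0 to 601.3 CPM at 4 months to 165.5 to 441.3 CPM at 24 months. Of 8 endothelial markers 2 fell (Cdh5, which also fell by 0.71 with age in wild type, and Pecam1), no macrophage, smooth muscle or myogenic marker tested passed, no heart marker held enough counts to be tested, and the part of these shifts was not tested.

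Across the 15 libraries at 4 and 24 months, the genes whose log level tracked the mean of Tnnt1, Tnni1 and Tnnc1 most closely, among 7917 ranked, were Myh7 (r = 0.97), Atp2a2 (0.95), Tubb6 (0.94), Myl12a (0.94), Wfs1 (0.93), Mknk2 (0.93), Xirp1 (0.92), Myl2 (0.92), Hspb7 (0.91) and Myl3 (0.91). Tpm3 reached 0.97, while Tnnt3 stood at 0.02, Tnnc2 at -0.15, Tnni2 at -0.28, Tpm1 at -0.46 and Tpm2 at -0.05. These are Pearson correlations given as a description, since the libraries share groups and extraction. Within the 8 libraries at 7 months, with group means taken off, Tpm3 reached 0.59 and the leading genes were others, with Pfkp (1.0), Sh3gl1 (0.99) and Scamp5 (0.98) first among 9180 ranked. Tnnt1, Tnni1 and Tnnc1, which make up the mean, themselves reached 0.77, 0.82 and 0.92 there. With 8 libraries and 9180 genes, the top of such a ranking can lie near this height by selection alone.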

How the data were processed

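Poly(A) RNA-seq of 23 quadriceps libraries was analysed in 6 groups taken from the sample titles. The authors deposited raw read counts per GENCODE gene. The submitters' processing notes name cutadapt 1.4.2, TopHat2, HTSeq, DESeq2, DESeq and the mm10 build, with no settings, and strand use is not given in the sources used here. The 5 summary lines of each count file (21.53% to 33.5% of reads at 7 months, 33.58% to 40.02% at 4 and 24 months) were left out. The authors also deposited 5 tables of comparisons, which hold, per the file headers, mean normalised counts (a signal per gene), log2 fold changes with standard errors, a test statistic (a score), p-values and adjusted p-values, and they are cited only where named.

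The 10 genes and every gene list were chosen with earlier results of these data known. Counts were tested with edgeR 4.0.16 (R 4.3.3; TMM scaling, filterByExpr, robust quasi-likelihood test, Benjamini-Hochberg adjustment over all tested genes) in 2 fits, 8 libraries at 7 months and 15 at 4 and 24 months, and in 6 comparisons, 1 of them the interaction of age and genotype. A gene was called at an adjusted p below 0.05. The rule for named genes took all 10 members, Nampt, Tnni3, Tpm4, the 4 called genes of lowest p in each list and the 10 genes most like the slow troponins. Lists with no call are given as counts, of the 7-month likeness the first 3 genes are printed, and 1 regulator is not reported here. The titles number separate animals, but nothing says whether litters or sequencing runs were shared. CPM, shares and levels per kilobase (union of exons) were computed in Python 3.11.15. No sample column was left unmapped. The scripts were tested on simulated data. Alternatives were DESeq2 1.42.0, total counts, no filter on low counts, all 23 libraries in 1 fit and leaving out each library, and shares were also taken with longest-transcript lengths and with raw counts. The quasi-likelihood test without robust estimation, limma-voom (limma 3.58.1) and levels per kilobase by longest transcript were chosen after seeing the data.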

Additional observations from a re-analysis of the deposited data

Results flagged for a closer look

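Of 85 sets of 4 libraries examined, 4 held a library that stood apart from its group by Dixon's test, and chance alone marks about 1 in 20 sets. Tnnc1 read 0.396 CPM in 7-month wild-type replicate 3, against 1.02 to 1.11 CPM in the other libraries of that group. Tnnt3 read 17956.9 CPM in 24-month wild-type replicate 1, against 20445.0 to 20932.2 CPM in the others. The slow share of troponin T was 0.107% in mNKO replicate 2, against 0.22% to 0.229% in the others. The slow share of troponin C was 0.0992% in 4-month wild-type replicate 4, against 0.00525% to 0.0188% in the others.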

How the results depend on the processing

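Of 815 log2 fold changes of members refitted under an alternative, 743 kept their direction and side of the threshold, 37 gained a call, 1 lost it and 34 changed sign. Of 245 shares recomputed, 56 did not stay within the replicate SD. These 56 include the slow troponin C share of MCK-NamptOE at 4 months, which stayed at 0 with an SD of 0 and so did not move. Depth limits Tnnt2, Tnnc1, Tnni1 and Tnnt1 at 4 and 24 months, where several libraries held 0 to 7 counts. No paired analysis was possible because replicate numbers only follow the order of the samples.

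The count of members called in mNKO stayed at 8 to 9, beside 36.5% to 58.6% of all genes. Without the filter on low counts, the calls became 1 for MCK-NamptOE against wild type at 4 months, 4 at 24 months, 5 for age in wild type, 4 for age in MCK-NamptOE and 4 for the interaction. In that order, 0.349%, 0.756%, 1.09%, 2.06% and 0.616% of 17207 genes were then called. With the filter the shares were 0.0109%, 0.0109%, 0.153%, 0.733% and 0%. For age in wild type DESeq2 gave 1 call, beside 0.35% of all genes. For age in MCK-NamptOE, DESeq2 gave 4, total counts 1, the fit of 23 libraries 4, edgeR without robust estimation 4, limma-voom 3 and leaving out each library 0 to 2. Calls over all genes in that comparison were 67, with 127 by DESeq2, 354 without the filter and 11 to 87 without 1 library, and for the interaction they were 0, with 1 by DESeq2 and 106 without the filter.

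Sign changes were confined among the members to small log2 fold changes of Tnnt3, Tnni2, Tnnc2, Tpm1 and Tpm2. With total counts in mNKO, Tpm2 read 0.32 and Acta1 0.05. With total counts Tnni2 read -0.08 in MCK-NamptOE against wild type at 24 months (0.00 by limma-voom), and for age in wild type Tnnt3 read 0.03, Tnni2 0.05, Tpm1 0.03 and Nampt 0.02. For the interaction, total counts gave -0.08 for Tnnt3 and -0.09 for Tnnc2. Leaving out 1 library at a time gave ranges that crossed or touched 0. At 4 months they were -0.05 to 0.12 for Tnnt3, -0.10 to 0.20 for Tnnc2 and -0.20 to 0.01 for Tpm4. At 24 months they were -0.03 to 0.18 for Tnnt3, -0.15 to 0.10 for Tnni2, -0.02 to 0.23 for Tnnc2 and -0.12 to 0.03 for Tpm1. For age in wild type Tnnt3 ran from -0.17 to 0.00. For age in MCK-NamptOE they were -0.15 to 0.06 for Tnnt3, -0.32 to 0.06 for Tnnc2 and -0.28 to 0.04 for Tpm2. For the interaction they were -0.07 to 0.16 for Tnnt3 and -0.12 to 0.25 for Tnnc2. The cause of these changes was not tested.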
